A study of Mus musculus with 10 samples.

Results

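The 51 genes described here encode the contractile apparatus, the calcium handling system and the myogenic transcription factors of skeletal muscle. They were chosen by name, from earlier results of these data in which a single tumor, KO1, held them at high levels, and each name matched 1 of the 35275 genes listed for every tumor. KO1 is therefore the tumor that chose the members, and its values for them are given as a description without a test. The other 9 tumors did not choose them.

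RNA was sequenced from 10 mouse cutaneous squamous cell carcinomas, 5 labelled Ldha-null (KO1 to KO5) and 5 labelled wild type (WT1 to WT5), all taken as whole fresh tumors. The study text gives a larger number of sequenced tumors per genotype than the 5 listed here, and the reason is not given in the sources used. Ldha encodes lactate dehydrogenase A, which makes lactate from pyruvate. In the study the animals were of mixed C57BL6/FVB background and both sexes, and tumors were made genetically in hair follicle stem cells, with p53 fl/fl among the alleles, or by the chemicals DMBA and TPA. Floxed Ldha was removed by K15-CrePR or Lgr5-CreER after mifepristone or tamoxifen, so that only cells of the follicle lineage could lose it. Which model, strain mix, age or sex each of the 10 sequenced tumors had is not given in the sources used here. The labels name the cell type as squamous carcinoma cells, but no sorting step is described.

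In skeletal muscle, thick filaments of myosin slide along thin filaments of actin within sarcomeres bounded by Z discs. Calcium released from the sarcoplasmic reticulum binds troponin and starts the movement. Fast and slow fibres build the same parts from different genes, embryonic and neonatal fibres use further myosin genes, and MyoD family factors switch the program on. Pax7 marks satellite cells, the stem cells of muscle. Skin lies over a thin sheet of such muscle in the mouse, the panniculus carnosus.

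Total counts per tumor ran from 12969508 to 17694201. Ldha RNA itself did not separate the labels, with 1882, 246, 1288, 542 and 324 FPKM in KO1 to KO5 and 390, 340, 345, 589 and 2824 FPKM in WT1 to WT5. FPKM, fragments per kilobase of gene scaled to the library size, is the authors' per-length scale. Directions between genotypes below are therefore directions between libraries labelled Ldha-null and wild type. By western blotting and activity assays, the study reported loss of Ldha protein and Ldh activity in Ldha-null tumors, with mosaic activity in some. Whether the sequenced tumors were among those assayed is not given in the sources used here. The 5 keratinocyte markers, defining genes of the labelled cell type, summed to 8253 CPM (counts scaled to the library total) in KO1 and to between 318 and 54029 CPM in the others. In whole tumors, more cells of a type and more RNA per cell cannot be told apart.

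The sequences upstream of 4 members are shown as a description, and no level was tested against them. Myog is a myogenic factor, Acta1 is the actin of the thin filament, and Myh4 and Myh2 are fast myosins that lead in different tumors. Each run is the 250 bases before the RefSeq transcription start in build GRCm38.p6 (mm10), read on the strand of the gene. Capitals mark an E-box (CANNTG), a MEF2 box (CTA and TAG with any 4 bases between), a TATA box (TATAAA on either strand) or a CArG box, and in these 4 runs no marked motif overlapped a different one.
Myog, chr1:134289754-134290003, plus strand: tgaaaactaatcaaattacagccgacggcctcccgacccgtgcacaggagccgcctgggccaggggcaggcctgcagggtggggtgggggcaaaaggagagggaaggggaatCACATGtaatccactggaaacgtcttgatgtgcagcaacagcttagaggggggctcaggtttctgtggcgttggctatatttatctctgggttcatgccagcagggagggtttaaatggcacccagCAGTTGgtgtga
Acta1, chr8:123894776-123895025, minus strand: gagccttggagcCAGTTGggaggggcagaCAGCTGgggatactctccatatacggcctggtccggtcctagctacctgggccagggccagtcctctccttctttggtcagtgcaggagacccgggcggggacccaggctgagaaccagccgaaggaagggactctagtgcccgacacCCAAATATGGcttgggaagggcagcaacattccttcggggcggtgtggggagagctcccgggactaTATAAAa
Myh4, chr11:67237562-67237811, plus strand: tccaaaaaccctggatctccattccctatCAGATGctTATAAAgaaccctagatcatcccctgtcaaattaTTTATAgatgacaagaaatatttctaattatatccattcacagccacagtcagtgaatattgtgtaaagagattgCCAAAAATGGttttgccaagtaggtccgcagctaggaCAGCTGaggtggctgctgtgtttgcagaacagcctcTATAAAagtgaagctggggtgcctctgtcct
Myh2, chr11:67170777-67171026, plus strand: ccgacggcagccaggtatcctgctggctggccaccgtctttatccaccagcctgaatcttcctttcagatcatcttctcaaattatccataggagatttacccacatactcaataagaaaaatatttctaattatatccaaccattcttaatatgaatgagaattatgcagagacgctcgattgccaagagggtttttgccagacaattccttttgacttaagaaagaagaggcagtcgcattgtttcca

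The Myh4 run holds 2 E-boxes, 3 TATA boxes and 1 CArG box, while the Myh2 run holds none of the 4 motifs. The Acta1 run has 2 E-boxes, 1 TATA box and 1 CArG box, and the Myog run 2 E-boxes. Of the 51 members, 40 had a RefSeq promoter, with 47 promoters among them. An E-box lay in 39 of the 47 (83%), against 66.2% of all 32851 mouse promoters of the same length. A MEF2 box lay in 5 (10.6%), against 3.2% of all promoters. A TATA box lay in 9 (19.1%), against 12.4%, and a CArG box in 5 (10.6%), against 1.47%. Promoters of 1 gene can overlap, as those of Ldb3 did, both with a CArG box. By member, 34 of the 40 had an E-box, 5 a MEF2 box, 9 a TATA box and 4 a CArG box. These matches describe letters in a window and were not tested as binding sites. The MEF2 box was counted only in the form given above, so a site of another form is neither marked nor counted.

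The members took 19.9% of all counts in KO1, which is 3465233 counts. Every other tumor gave them between 0.0303% (KO3, exact Clopper-Pearson 95% interval 0.0295 to 0.0312%) and 0.0901% (WT1, 0.0887 to 0.0916%). Intervals of this kind cover counting error only. Desmin (Des) and beta-tropomyosin (Tpm2) are also made by smooth muscle, and without this pair the share was 18.8% in KO1, 0.0529% in WT1 and 0.00952% in KO3. The 9 tumors then held 1433 to 9103 member counts each.

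All 51 members were higher in KO1 than in each of the other 9 tumors, 49 of them by over 10-fold and 34 by over 100-fold. Over the 16493 genes at 1 FPKM or more in any tumor, 13.6% were highest in KO1 and 2.76% by over 10-fold. Because KO1 chose the members, nothing is read from this contrast. In KO1, 41 members reached 100 FPKM and 16 reached 1000 FPKM. In the other 9 tumors 16 members stayed below 1 FPKM in every tumor, and 11 were at 0 counts in at least 1 of them. The heat map of all members shows KO1 as a single bright column.

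**Figure D1:**
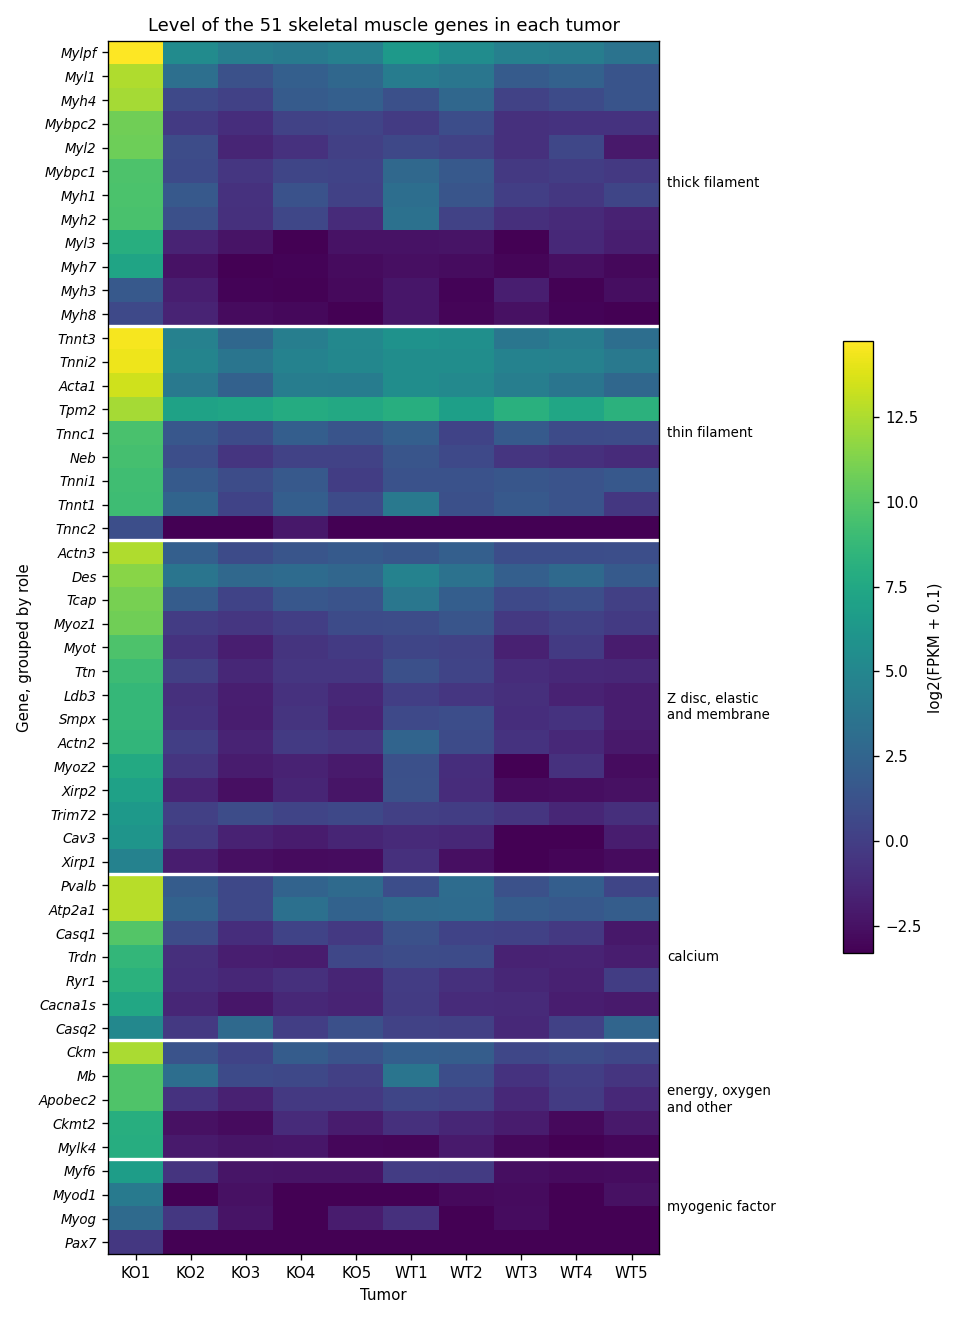
Level of each of the 51 members, as log2(FPKM + 0.1), in the 10 tumors, with genes grouped by role and ordered within a role by their level in KO1. KO1 is the brightest column for all 51 genes, and Tpm2 is the brightest row of the other 9 tumors, at 116 to 313 FPKM.

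Among thick filament genes in KO1, the fast regulatory light chain Mylpf had the highest level, 27349 FPKM, followed by the fast essential light chain Myl1 at 6199 FPKM. The slow light chains Myl2 and Myl3 were at 1751 and 253 FPKM. In the 9 other tumors Mylpf ranged from 11.9 (WT5) to 88.2 FPKM (WT1) and Myl1 from 2.13 (KO3) to 19 FPKM (WT1). Levels of Myl3 there were 0 to 0.322 FPKM, from 0 to 4 counts.

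The 6 myosin heavy chains among the members, motors of the thick filament, were measured in every tumor. Myh6 is not a member and is given below with the cardiac markers. The fast Myh4 (IIb), Myh1 (IIx) and Myh2 (IIa) and the developmental Myh3 (embryonic) and Myh8 (neonatal) lie in a cluster on chromosome 11, and the slow Myh7 on chromosome 14. These genes are related in sequence to differing degrees, so some reads may have been split between them or left uncounted. Exons of Myh7 and Myh1 also share 13.3% and 8.11% of their bases with antisense genes.

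Myh4 (chr11:67238029-67260446) was at 5079 FPKM in KO1. KO2 to KO5 had 1.52, 1.02, 3.47 and 4.43 FPKM and WT1 to WT5 had 1.99, 6.3, 1.09, 1.61 and 2.47 FPKM. Highest of these was WT2, and the genotypes overlapped.

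Myh1 (chr11:67200052-67224575) was at 784 FPKM in KO1, at 3.19, 0.498, 2.26 and 1.01 FPKM in KO2 to KO5 and at 9.04, 2.61, 0.909, 0.678 and 1.27 FPKM in WT1 to WT5. Myh2 (chr11:67171027-67197517) was at 764 FPKM in KO1, at 1.99, 0.469, 1.37 and 0.375 FPKM in KO2 to KO5 and at 10.6, 1.11, 0.443, 0.337 and 0.236 FPKM in WT1 to WT5. WT1 had the highest level of both genes among the 9, KO2 the second highest, and the other 7 lay below these for both.

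Myh7 (chr14:54970688-54994634) was at 150 FPKM in KO1 from 10787 counts. Its counts in KO2 to KO5 were 6, 0, 1 and 3, and in WT1 to WT5 they were 5, 3, 1, 5 and 2, so that this slow form was near the limit of detection in all 9.

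Myh3 (chr11:67078300-67102291) had 333 counts in KO1, then 19, 1, 1 and 4 in KO2 to KO5 and 12, 1, 15, 1 and 5 in WT1 to WT5. Myh8 (chr11:67277124-67308634) had 108 counts in KO1, 18, 3, 2 and 0 in KO2 to KO5 and 8, 1, 4, 1 and 0 in WT1 to WT5. For both developmental forms, KO2, WT1 and WT3 held the highest counts of the 9, which were at most 19.

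As shares of the summed FPKM of the 6 genes, Myh4 made up 74.9% in KO1, Myh1 11.6%, Myh2 11.3%, Myh7 2.21%, Myh3 0.047% and Myh8 0.0218%. The order differed in WT1, where Myh2 made up 48.5%, Myh1 41.1% and Myh4 9.06%, over 1783 counts. KO2 was led by Myh1 at 44.2%, with Myh2 at 27.6% and Myh4 at 21.1%, over 613 counts. Myh4 led in the other 7 tumors, with 39.9% (WT3) to 75.1% (KO5). As a share of counts, the 95% interval of Myh4 was 10 to 13% in WT1 and 22.2 to 29.3% in KO2, and the lowest of the other 7 was 38.1 to 52.9% in WT3. Myh3 reached 7.07% in WT3, from 15 of 185 counts, and 2.54% in KO2.

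**Figure D2:**
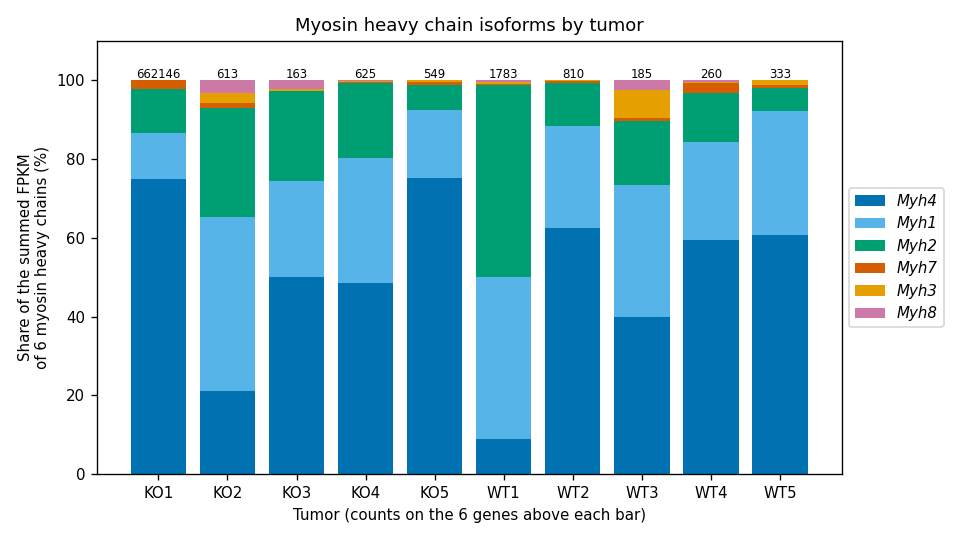
Share of the summed FPKM of 6 myosin heavy chain genes held by each, as stacked bars from 0 to 100% for the 10 tumors, with the counts on the 6 genes printed above each bar. Myh4 is the largest part in KO1 (74.9%) and in 7 other tumors, while Myh1 leads in KO2 (44.2%) and Myh2 in WT1 (48.5%).

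Myosin binding protein C stabilises the thick filament. Its fast form Mybpc2 was at 1789 FPKM in KO1, and its slow form Mybpc1 at 837 FPKM. Among the others, WT1 had the highest Mybpc1, 6.75 FPKM, and WT2 the highest Mybpc2, 1.82 FPKM.

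In the thin filament, skeletal actin (Acta1, chr8:123891767-123894736) was at 11245 FPKM in KO1. KO2 to KO5 had 15.6, 4.68, 20.2 and 19.2 FPKM and WT1 to WT5 had 46.6, 36.4, 21.3, 12.6 and 6.47 FPKM. WT1 and WT2 were the highest of the 9 and KO3 the lowest, and the genotypes overlapped.

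Troponin is the calcium switch of the thin filament. The fast troponin T gene Tnnt3 (chr7:142498836-142516009) was at 22953 FPKM in KO1, at 24.5, 6.43, 21.1 and 35.2 FPKM in KO2 to KO5 and at 58.4, 50.4, 13.2, 19.7 and 9.22 FPKM in WT1 to WT5. The fast troponin I gene Tnni2 (chr7:142441808-142444410) was at 20254 FPKM in KO1, at 28, 12.6, 25.7 and 33.2 FPKM in KO2 to KO5 and at 47, 45.2, 26.1, 24.2 and 15.6 FPKM in WT1 to WT5. For both genes WT1 and WT2 were the highest of the 9, and the groups overlapped.

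Slow troponins were lower in KO1, with Tnnt1 at 553, Tnni1 at 578 and Tnnc1 at 739 FPKM. Slow Tnnt1 stood at 16 FPKM in WT1 and at 0.661 to 5.65 FPKM in the other 8. Tnni1 lay in the narrow range of 0.88 to 3.3 FPKM over the 9 tumors. The fast troponin C gene Tnnc2 was at 17 counts in KO1, at 1 in KO4 and at 0 in the other 8 tumors. In release M21 of GENCODE, 74% of its exon bases are also exon of Ube2c on the other strand, and the part of this overlap in the low count was not tested.

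Tpm2 (chr4:43514711-43523765) was at 4969 FPKM in KO1, at 136, 154, 221 and 191 FPKM in KO2 to KO5 and at 259, 116, 282, 168 and 313 FPKM in WT1 to WT5. It had the most counts of any member in the 9 tumors and was 15.9-fold higher in KO1 than in WT5, the highest of them. The giant ruler protein nebulin (Neb) was at 693 FPKM in KO1 and at 0.37 to 2.68 FPKM elsewhere.

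Z disc genes followed. Alpha-actinin 3 (Actn3), the fast-fibre crosslinker of actin, was at 6036 FPKM in KO1, and alpha-actinin 2 (Actn2), found in all fibres, at 380 FPKM. In WT1 the order was the other way, with Actn2 at 5.53 and Actn3 at 2.71 FPKM. The other 8 had more Actn3 (1.65 to 4.3 FPKM) than Actn2 (0.137 to 1.65 FPKM). Titin (Ttn), the elastic spring, was at 524 FPKM in KO1 and at 0.298 to 2.01 FPKM elsewhere, and its cap Tcap was at 2142 FPKM and at 0.985 to 14.4 FPKM.

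Desmin (Des, chr1:75360329-75368579), the intermediate filament that ties Z discs together, was at 3001 FPKM in KO1, at 13.1, 6.86, 7.74 and 6.14 FPKM in KO2 to KO5 and at 25.3, 11.3, 4.43, 7.19 and 3.4 FPKM in WT1 to WT5. WT1 was again the highest of the 9 and KO2 the second. The smooth muscle markers Acta2 and Tagln, which mark cells that can also carry Des and Tpm2, were at 14.7 and 22.9 FPKM in KO1 and at 34.3 to 499 and 35.7 to 137 FPKM in the others.

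The actin-binding repeat proteins Xirp1 and Xirp2, which sit at sites of filament assembly and repair, were at 25.4 and 128 FPKM in KO1. Among the 9, WT1 had the highest of both, 0.478 and 2.13 FPKM, and the next highest were 0.169 FPKM in KO2 for Xirp1 and 0.398 FPKM in WT2 for Xirp2. The Z disc proteins Myoz1 and Myoz2, which are the fast and slow myozenins, Myot (myotilin) and Ldb3 were at 1818, 200, 840 and 428 FPKM in KO1, and the small muscle protein Smpx was at 425 FPKM. In the 9 others none of these 5 exceeded 2.58 FPKM, the level of Myoz1 in WT2. Caveolin 3 (Cav3) and Trim72, proteins of the muscle membrane and its repair, were at 67.6 and 84.6 FPKM in KO1 and at most at 0.699 and 1.78 FPKM in the others.

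Calcium genes were led in KO1 by parvalbumin (Pvalb), the calcium buffer of fast fibres, at 7153 FPKM, and by the fast calcium pump Atp2a1 at 7099 FPKM. The release channel Ryr1 was at 297 FPKM, its voltage sensor Cacna1s at 179 FPKM and triadin (Trdn), which anchors the store protein, at 405 FPKM. In the 9 others, Pvalb was highest in WT2 (8.4 FPKM) and KO5 (7.66 FPKM), and was at 1.87 FPKM in WT1. Ryr1 was at 201 counts in WT5 and 222 in WT1, and at 55 to 121 in the other 7. Exons of Atp2a1 and Cacna1s share 21.9% and 20% of their bases with genes on the other strand.

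The calcium store proteins are the fast calsequestrin Casq1 and the slow and cardiac Casq2. KO1 had 967 FPKM of Casq1 and 34.5 FPKM of Casq2. Casq2 had 153 counts in KO3 and 123 in WT5, against 6 to 48 in the other 7, while Casq1 had 7 and 2 counts in KO3 and WT5. These 2 tumors also had the highest keratin 14 (Krt14) of the 10, 602764 and 606351 counts against 3335 to 102913, and the part of this in the Casq2 level was not tested.

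Of the members for energy and oxygen, muscle creatine kinase (Ckm) was at 5646 FPKM in KO1 and at 1.13 to 4.19 FPKM in the others. Myoglobin (Mb), the oxygen store of oxidative fibres, was at 891 FPKM in KO1, 12.6 FPKM in WT1 and 9 FPKM in KO2, and at 0.517 to 1.83 FPKM in the other 7. Exons of Mb and Ckm share 31.9% and 15.5% of their bases with genes on the other strand. The mitochondrial creatine kinase Ckmt2, the kinase Mylk4 and Apobec2 were at 252, 247 and 860 FPKM in KO1 and none exceeded 1.29 FPKM elsewhere.

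The 4 myogenic factors had low counts outside KO1. Myod1 (chr7:46376474-46379092), the factor that commits cells to muscle, had 555 counts in KO1 (17.2 FPKM), 0, 2, 0 and 0 in KO2 to KO5 and 0, 1, 1, 0 and 2 in WT1 to WT5. Myf6 (chr10:107492860-107494729), the factor most used by mature fibres, had 2349 counts in KO1 (108 FPKM), 12, 2, 2 and 2 in KO2 to KO5 and 18, 14, 1, 1 and 1 in WT1 to WT5. Only WT1, WT2 and KO2 of the 9 had more than 2 counts of Myf6.

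Myogenin (Myog, chr1:134289989-134292548), which drives terminal differentiation, had 197 counts in KO1 (7.57 FPKM), 17, 2, 0 and 4 in KO2 to KO5 and 12, 0, 1, 0 and 0 in WT1 to WT5. KO2 and WT1 held 29 of the 36 counts in the 9 tumors. Pax7 (chr4:139737062-139833528) had 43 counts in KO1 (0.652 FPKM) and 0 in each of the other 9, which puts KO1 at least 10.7-fold higher than the level of 3 counts in the least deep of these libraries. In KO1 the mature factor Myf6 was thus the highest of the 4 per length, and Pax7 the lowest.

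Fast and slow forms were compared as 9 pairs or families, each part of the sarcomere or calcium store having a fast and a slow gene. Over all pairs the fast genes made up 94.5% of the summed FPKM in KO1 and 78.3% (KO3 and WT5) to 93.7% (WT2) in the others. In KO3 and WT5 the slow gene with the highest level was Casq2, at 7.14 and 5.76 FPKM. The low sums there thus rest in large part on this gene, and the share without the calsequestrin pair was not computed. Fast genes were over 50% in 8 of 9 pairs in KO1, the exception being troponin C, with its overlapped Tnnc2. Among myosin binding proteins the fast share was 68.1% in KO1, 10.4% in WT1 (49 fast and 239 slow counts) and 31.9 to 51.8% in the other 8. The FPKM of Mybpc1 rest on a length of 2058 bases, against 3922 listed. From counts per listed length, a scale chosen after seeing the data, these shares were 80.3%, 18.2% and 47.2 to 67.2%. Which form leads in most tumors thus depends on the length used. The myozenins, Z disc partners of calcineurin, were 90.1% fast in KO1, 45.5% in WT1 (38 and 45 counts) and 57.8% in KO2. From counts per listed length they were 94.5%, 61.1% and 72.1% fast.

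Troponin T was 97.6% fast in KO1, 78.4% in WT1 and 80.7 to 96.1% in the other 8. The heavy chains and the regulatory light chains were at least 93.8% fast in every tumor. Calsequestrin had the widest range, from 2.04% fast in WT5 and 5.54% in KO3 to 96.6% in KO1. The plot of pairs shows WT1 apart from KO1 in myosin binding protein C, myozenin, troponin T and calsequestrin, and level with it in the myosins. The last 2 of these distances were not particular to WT1. For troponin T, WT3 and KO2 lay near WT1, at 80.7% and 81.2%. For calsequestrin WT1 was at 66.1%, below KO2 (72%) and WT3 (76.2%), and WT5, KO3, KO5, WT4, WT2 and KO4 were lower, at 2.04 to 55%.

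**Figure D3:**
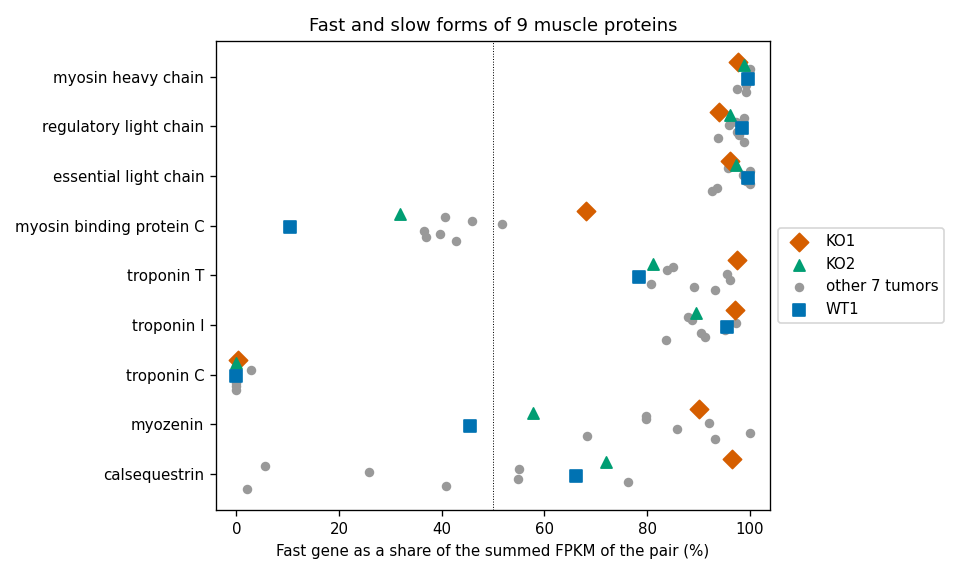
Fast gene as a percentage of the summed FPKM of each of 9 fast and slow pairs, with 1 point per tumor, a diamond for KO1, a square for WT1, a triangle for KO2 and circles for the other 7. The fast share of myosin binding protein C is 68.1% in KO1 and 10.4% in WT1, and calsequestrin spreads from 2.04 to 96.6%.

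To set the traces in the other tumors beside the KO1 level, CPM of each member was divided by its CPM in KO1, for the 33 members with at least 10000 counts there. The median was 28.3 per 10000 in WT1, 15.8 in WT2, 13.9 in KO2, 11.9 in KO4 and 9.04 in KO5. WT4, WT3, KO3 and WT5 had 7.38, 5.81, 4.36 and 4.34 per 10000. Tpm2 stood apart, at 233 to 629 per 10000 in all 9, and is left out of the ranges that follow.

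The traces in WT1 were not a constant fraction of KO1. They ran from 0.874 per 10000 for Mylk4 to 166 for Xirp2, with Actn2 at 145, Mb at 141, Myh2 at 139 and Myh1 at 115. At the low end were Pvalb at 2.61, Myh4 at 3.92 and Mybpc2 at 4.39. KO2 ran from 3 per 10000 for Myh4 to 101 for Mb. In WT4 the range was 0 to 24, with Des the highest.

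Across the 33 members, the rank order of levels in KO1 was nearest to that in WT4 (Spearman's rho 0.948) and farthest from that in WT1 (0.641). WT1 and KO2 had 0.908 with each other, the highest value of WT1 with any tumor. KO2 had higher values with KO3 (0.946), KO4 (0.942) and WT3 (0.924), so the closeness was not particular to this pair. These values describe genes, which are not independent replicates, and the points share gene length and KO1's depth.

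**Figure D4:**
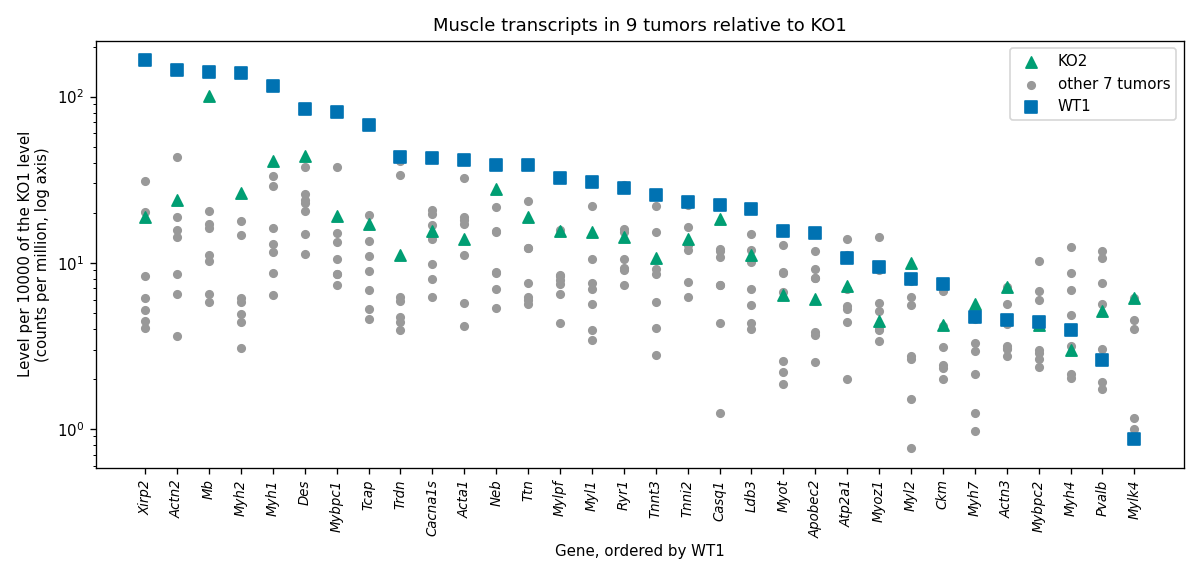
CPM of 32 members in each of 9 tumors per 10000 of their CPM in KO1, on a log axis, ordered by WT1 (squares), with KO2 as triangles and the other 7 tumors as circles. Tpm2 and the 2 values of 0 (Myh7 in KO3 and Mylk4 in WT4) are not drawn, and WT1 falls from 166 for Xirp2 to 0.874 for Mylk4.

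Among the 9 tumors, WT1 had the highest FPKM for 28 members, against 12.4% of the 16014 genes at 1 FPKM or more in any of the 9. WT2 was highest for 7, which were Myh4, Mybpc2, Actn3, Myoz1, Smpx, Pvalb and Mylk4, with a background of 11.4%. KO2 was highest for 6, which were Myh7, Myh8, Myl2, Tnni1, Cav3 and Myog, with a background of 11%. These backgrounds cover genes at 1 FPKM or more, while 16 of the 51 members stayed below 1 FPKM in all 9 tumors. Among those 16 were Myh7, Myh8, Cav3 and Myog of KO2 and Mylk4 of WT2. The member counts and the backgrounds are thus of unlike sets, and no excess or lack is read from them. KO5 was highest for none. With 1 tumor at each such level, no test was made of these counts.

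Genotype was compared with edgeR across all genes, first in all 10 tumors. Of the members, 35 passed the filter on low counts, with a median log2 fold change (Ldha-null minus wild type) of 7.65 against 0.02 over the 15176 genes tested. None had an adjusted p under 0.05, as for all genes (0% called), and 34 had an unadjusted p under 0.05, against 3.96% of all genes. DESeq2 called 0, but gave no p for 34 of the 35 members. KO1 is in this contrast and chose the members, so the median and the 34 small p-values follow from that choice. They are a description of KO1, and nothing is read from their distance to the share over all genes.

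Without KO1, 4 Ldha-null and 5 wild-type tumors remained. Again 35 members could be tested, among 15510 genes. With edgeR, 0 had an adjusted p under 0.05, as for all genes (0%), and 1 had an unadjusted p under 0.05, against 1.25% of all genes. DESeq2 also called 0, with 1 member at an unadjusted p under 0.05 and no p for 2. The median log2 fold change was -0.40, with 28 members negative and 7 positive, against a median of -0.01 over all genes. Without WT1 the median was 0.10, with 19 positive and 16 negative.

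The member with an unadjusted p under 0.05 was Trim72, whose log2 fold change was 1.12 (0.16 to 2.07 as the 95% interval, edgeR adjusted p = 1). Its levels in KO2 to KO5 were 0.965, 1.78, 1.18 and 1.4 FPKM and in WT1 to WT5 0.993, 0.886, 0.596, 0.276 and 0.434 FPKM. The groups overlapped only through KO2 and WT1. Exons of Trim72 share 27.6% of their bases with the antisense gene Gm15533.

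For the other members the intervals were wide. The log2 fold change of Myh2 was -1.25 (-3.77 to 1.28 as the 95% interval), Xirp2 of -1.67 (-4.15 to 0.81) and Actn2 of -1.39 (-3.47 to 0.69). Narrower ones were Tnni2 at -0.37 (-1.11 to 0.37), Tpm2 at -0.40 (-1.13 to 0.33) and Actn3 at 0.22 (-0.57 to 1.01). Mean levels of Acta1 were 14.9 ± 3.56 FPKM (mean ± SEM, n = 4) and 24.7 ± 7.44 FPKM (n = 5). Those of Tnnt3 were 21.8 ± 5.94 and 30.2 ± 10.1 FPKM, and those of Myh4 2.61 ± 0.803 and 2.69 ± 0.931 FPKM.

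By an exact two-sided permutation test of mean log2(FPKM + 0.1), over 126 assignments, 1 of the 48 members with 10 or more counts in the 9 tumors had an unadjusted p under 0.05. The same held for 1.58% of 20301 genes. This was again Trim72 (difference 1.03, exact p = 0.0397, adjusted p = 1 in the edgeR test across all genes). The smallest p that this design allows is 0.00794. Myog and Myf6 differed by 0.69 and -0.21 (exact p = 0.413 and 0.873), and both were too low for the edgeR test. Myod1, Tnnc2 and Pax7 had too few counts for either.

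**Figure D5:**
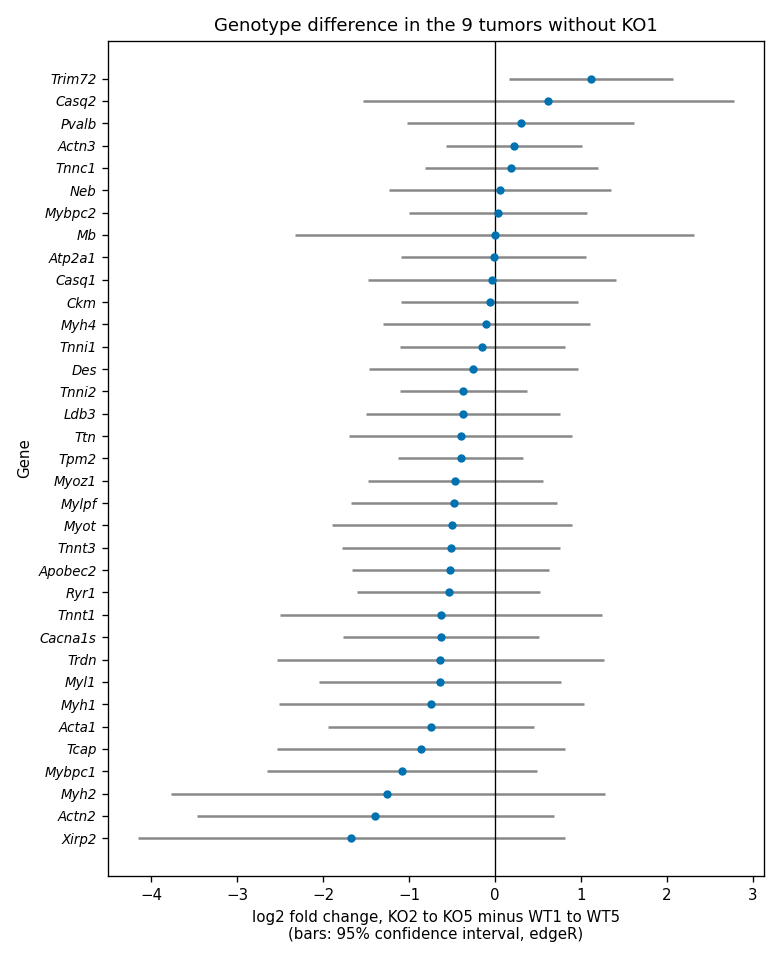
Log2 fold change of the 35 members tested, KO2 to KO5 minus WT1 to WT5, as points with edgeR 95% confidence intervals. The interval lies wholly above 0 for Trim72 (0.16 to 2.07) and spans 0 for the other 34.

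Other genes of the muscle program, from lists that do not hold the members, were also high in KO1. Over the 16493 genes at 1 FPKM or more in any tumor, 13.6% were highest in KO1 and 2.76% by over 10-fold. This is the background for each list below, though the lists were not filtered at 1 FPKM. Some of their genes, such as Chrng and Nkx2-5, stayed below that level in every tumor. Of 27 further sarcomere genes, 27 were highest in KO1, 25 by over 10-fold, led by Tpm1 at 5297, Fhl1 at 2073 and Csrp3 at 1205 FPKM. All 17 further excitation-contraction genes were highest there, 13 by over 10-fold, led by Tmem38a at 549 FPKM, a channel of the calcium store, and Jsrp1 at 456 FPKM. Of 16 genes for fuel and ATP supply, 16 were highest, 14 by over 10-fold, with the muscle enolase Eno3 at 5678 and glycogen phosphorylase Pygm at 2320 FPKM. The slow and ubiquitous forms Atp2a2 and Tpm3 differed least, with 111 FPKM in KO1 against 39.8 to 94.1, and 768 FPKM against 244 to 541.

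Regulatory lists were less uniform. Of 10 neuromuscular junction genes, 8 were highest in KO1, 4 by over 10-fold, with Chrnb1 at 74.4 and Rapsn at 29.4 FPKM. Chrna1 was not, at 6.38 FPKM against up to 9.64 in KO4, but was highest in KO1 once CPM was divided by each library's TMM factor (a trimmed mean scaling for library composition), at 47.5 against 0.211 to 38.1. The other exception was Chrng, the fetal acetylcholine receptor subunit, with 0 counts in KO1 (a level of up to 0.172 CPM is allowed by 0 counts), 8 in WT1, 7 in KO2, 5 in KO3 and 3 in WT3. It was named after its values were seen.

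Of 18 further myogenic regulators and satellite cell genes, 13 were highest in KO1, 5 by over 10-fold. With CPM divided by the TMM factors these counts were 14 and 7. The background by FPKM, over genes at 1 FPKM or more in any tumor, was 13.6% and 2.76%. Mef2c was at 79.7 FPKM in KO1 and at 2.11 to 8.76 FPKM in the others, and Mef2d at 73.3 FPKM against 26.8 to 65.8 FPKM. Mef2a was at 39.8 FPKM in KO1 and at 28.2 to 73.7 FPKM in the others. Of 5 wasting genes, Trim63 (107 FPKM) and Fbxo32 (38 FPKM), ubiquitin ligases of muscle atrophy, were highest in KO1, and Foxo1, Foxo3 and Fbxo30 were not.

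In the comparison of 9 tumors with edgeR, 0 genes of these 6 lists had an adjusted p under 0.05, of 20, 14, 13, 4, 9 and 5 tested in the order given, and 0 had an unadjusted p under 0.05. Their median log2 fold changes were -0.10, 0.02, -0.28, 0.18, 0.10 and -0.31.

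Markers of other cell types in KO1 were as follows, beside the 13.6% of genes at 1 FPKM or more in any tumor that were highest there. Of 9 cardiac markers, 4 were at 0 counts in KO1, namely Nppa, Mybpc3, Nkx2-5 and Gata4, and 1 was highest there, Myh6 at 745 counts, a gene near-identical to its neighbour Myh7. The 9 summed to 45.6 CPM in KO1 and 10.8 to 85.5 CPM in the others. Smooth muscle and pericyte markers summed to 315 CPM in KO1 and 348 to 1306 CPM in the others, and 2 of 9 were highest in KO1, Myh11 and Lmod1. None of the 4 fibroblast, 3 leukocyte, 3 endothelial or 5 keratinocyte markers was highest there. Fibroblast markers summed to 875 CPM (1692 to 7032 CPM in the others), leukocyte markers to 12.8 CPM (55.5 to 323 CPM) and endothelial markers to 53.6 CPM (55.6 to 143 CPM).

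The TMM factor was 0.589 in KO1 and 0.881 to 1.2 in the other 9, so dividing CPM by it raises KO1 against the others. This scaling of the lists was added after the data were seen, and the share over all genes was not computed on this scale. Scaled in this way, smooth muscle and pericyte markers (535 in KO1, 313 to 1198 in the others) and endothelial markers (90.9 in KO1, 49.6 to 131) lay within the range of the others, and 4 of the 9 smooth muscle and pericyte markers and 2 of the 9 cardiac markers were then highest in KO1. Fibroblast markers (1486 in KO1, 1921 to 6827) and leukocyte markers (21.8 in KO1, 58.6 to 296) stayed below it, though 1 of the 4 fibroblast markers, Dcn, was then highest in KO1. All of the 27, 17 and 16 further sarcomere, excitation-contraction and fuel genes were again highest in KO1.

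Tendon markers summed to 102 CPM there against 10.4 to 57.6 CPM, and after the TMM scaling to 173 against 9.33 to 60.8, with Tnmd, Mkx and Fmod highest among the 4. Of 4 adipocyte markers 3 were highest in KO1, Adipoq (107 FPKM), Plin1 and Lep, though the sum of 503 CPM lay within the range of the others, 7.79 to 641 CPM, and after the TMM scaling above it, at 855 against 7.14 to 728. Genes shared by heart and developing muscle summed to 20.4 CPM, within 5.64 to 48.7 CPM, with 1 of 4, Actc1, highest. Genes named here as highest in KO1 were named after their values were seen. The part of these cells in the muscle levels of KO1 was not tested.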

How the data were processed

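Libraries from 10 tumors were sequenced on an Illumina HiSeq after oligo(dT) selection. Per the labels and the study's methods, the authors called bases with CASAVA 1.8, mapped reads to mm10 with TopHat2 and counted them per gene with HTSeq in union mode. Strand setting and annotation release were not given in the sources used here. The deposited tables hold raw counts and FPKM for 35275 genes, and FPKM used the length listed in the tables, within 1%, for 18 of the 51 members. Members and lists were chosen with earlier results of these data known. All members could be named, those of other lists by highest FPKM in KO1 or highest mean elsewhere. Values were given for every tumor for myogenic factors, myosin heavy chains and the 6 members with most counts outside KO1.

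Counts were tested with edgeR 4.0.16 quasi-likelihood F-tests (R 4.3.3, filterByExpr with a minimum count of 10, TMM, Benjamini-Hochberg adjustment over all genes tested). Alternatives included DESeq2 1.42.0 and limma 3.58.1. The edgeR and permutation tests were checked on simulated data. Depth was 12969508 to 17694201 counts, and 3 counts equalled 0.17 to 0.231 CPM. The chi-square per degree of freedom between tumors of one genotype was at least 85.2, so no 2 libraries of one genotype were duplicates. Pairs across the genotypes were not compared in this way. The labels describe separate mice but not litters or batches. FPKM were tested as log2(FPKM + 0.1) by exact permutation. Exon overlaps came from GENCODE M21, in which 20 of the 51 members share exon bases with another gene, and promoters from RefSeq. An allele of the tumor model and the values of a few list genes are not reported here.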

Additional observations from a re-analysis of the deposited data

Results flagged for a closer look

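Within the 5 Ldha-null tumors, KO1 stood far from the other 4 for the share of counts on the members (19.9%, gap 0.921 of the range on the log2 scale) and for that share without Des and Tpm2 (18.8%, gap 0.881). KO1 chose the members, so these distances are fixed by the choice.

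For the 15 members given in every tumor, WT1 to WT5 and KO2 to KO5 were checked separately, which made 30 checks, and 3 samples stood far from their group. Chance alone gives about 1 in 20. WT1 had the highest Myog of the wild-type tumors, 0.467 FPKM from 12 counts. KO2 had the highest Myf6 of KO2 to KO5, 0.557 FPKM from 12 counts. KO3 had the only Myod1 of KO2 to KO5, 0.0717 FPKM from 2 counts, which is too few to read. Among KO2 to KO5, KO3 was also low for the share of counts without Des and Tpm2, 0.00952%.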

How the results depend on the processing

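In both genotype comparisons 0 members had an adjusted p under 0.05 with each of the tools, scalings, filters and thresholds tried. In the 10 tumors, the median log2 fold change of the members tested (7.65) was 0.05 with limma-voom sample weights and 1.03 with the replicate block, and leaving out 1 tumor gave -0.40 (without KO1) to 8.43. Members at an unadjusted p under 0.05 (34) numbered 1 with DESeq2, which gave no p for 34 of the 35, 0 with limma-voom, 0 with the block and 1 (without KO1) to 39 without 1 tumor. In the 9 tumors the median (-0.40) was 0.15 with the replicate block, in which WT1 has no partner, and -0.58 to 0.10 without 1 tumor, the positive value being that without WT1. Members at an unadjusted p under 0.05 (1) numbered 0 with a mean CPM of at least 5 and 0 to 1 without 1 tumor, with 0 without KO3, WT4 or WT5. In the exact test they numbered 0 to 1 without 1 tumor, an alternative chosen after seeing the data, with 0 without KO3, KO4, KO5, WT2, WT3, WT4 or WT5. Of 610 uncalled fold changes of single members under the alternatives, 59 changed sign, 14 of them with the block and 12 without WT1.

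Same-numbered tumors did not deviate together (correlations -0.04, 0.06, -0.27, 0.55 and -0.51), and only KO4 was most like the wild-type tumor of its own number, so the replicate numbers were not taken as pairs.

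The share of counts in KO1 was 24.9% of all other counts, 18.7% of summed FPKM and 18.8% without Des and Tpm2. The lowest of the other 9 was 0.0291% of summed FPKM and 0.00952% without this pair, and the highest was 0.0529% without it. The fast share in KO1 was 94.9% from counts, 94.3% without heavy chains, 95.3% without troponin C and 95.2% from counts per listed length. The lowest of the others was 71%, 76.7%, 80.6% and 79.9% in that order. The last 2 were chosen after seeing the data. No setting left out the calsequestrin pair. Below about 10 counts, as for most myogenic factors outside KO1, differences between tumors were not detectable at this depth.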

Other observations

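Values of a few further genes of the myogenic and satellite cell list follow, picked after their values were seen. Megf10, a receptor of satellite cells that other cell types also use, had 475 counts in WT1, 7 in KO1 and 0 to 23 in the other 8. Cdh15 (M-cadherin), an adhesion protein of muscle precursors, had 634 counts in KO1, 152 in WT5 and 0 to 9 in the other 8. Tbx1, which acts in head muscle and in skin appendages, was at 8.57 FPKM in KO1 and at up to 61.2 FPKM in KO5. The fusion genes listed as Tmem8c and Gm7325 had 1 and 0 counts in KO1, and Gm7325 reached 12 counts in KO5, WT3 and WT4. No test was made of any of these values.

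The cardiac marker Nppb had 11 counts in KO1 and 75 to 1422 counts in the other 9 tumors. The slow calcium pump regulator Pln had 59 counts in KO1 and 1 to 26 in the others.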
